A study of Saccharomyces cerevisiae with 4 samples.

Results

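The 10 genes of inositol and phospholipid synthesis described here were followed by ribosome profiling, a sequencing of mRNA pieces shielded from nuclease by ribosomes, in yeast that has or lacks VPS35, a core retromer protein needed to recycle membrane proteins out of endosomes. The 10 genes were chosen by name for their place in this pathway, with earlier results of these data known. All 10 were listed among the 5441 open reading frames (ORFs) of the deposited tables, and all 10 passed the minimum of 200 counts summed over the libraries, which 4997 ORFs reached. They are INO1 and ITR1, which supply inositol, CHO1 and PSD1, which make phosphatidylserine and phosphatidylethanolamine, CHO2, OPI3 and HNM1, which lead to phosphatidylcholine, and the regulators INO2, INO4 and OPI1.

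The libraries came from Saccharomyces cerevisiae strain Y7092, a haploid laboratory strain used for systematic crosses. Wild-type cells and cells with the vps35::natMX deletion, in which a drug-resistance cassette stands in place of VPS35, were labelled as carrying either pAG416GAL-ccdB, the control plasmid, or pAG416GAL-TIF4631, from which galactose induces TIF4631, the gene of initiation factor eIF4G1. All 4 groups were grown in synthetic defined medium to early log phase, with the plasmid genes induced for 2 h, and each group was 1 library. The inositol and choline content of the medium is not given in the sources used here. The question of the series is whether VPS35 and EIF4G1, both linked to Parkinson's disease, interact in yeast. With 1 library per group there was no spread between replicates, so the 95% intervals below cover counting error only, and reads from PCR without molecular identifiers are not independent molecules.

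Summed counts were between 11240681 and 18067205 per library. VPS35 had 2187 and 1974 counts in the wild-type libraries and 9 and 10 in the deletion libraries. TIF4631 reached 6217 CPM (counts per 1000000, scaled by the TMM method) in the vps35 deletion library with its plasmid and at 403 to 455 CPM in the other 3. The wild-type library labelled TIF4631 therefore held no excess of TIF4631 footprints and went against its label, and it is named by that label throughout. URA3, the marker of pAG416 plasmids, was at 732 to 884 CPM in those 3 libraries and at 118 CPM within the deletion library with raised TIF4631. Whether that library carried the URA3-marked plasmid of its label therefore cannot be told from the files, and comparisons with it are comparisons with a library of raised TIF4631. The part of either difference in the results below was not tested. Footprints hold mRNA level and translation together, since no matched RNA sequencing was analysed here.

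Yeast makes inositol from glucose 6-phosphate or imports it, and joins it to CDP-diacylglycerol to form phosphatidylinositol. The same CDP-diacylglycerol gives phosphatidylserine, which is decarboxylated to phosphatidylethanolamine and methylated to phosphatidylcholine. Many genes of these steps carry an inositol-responsive element bound by the activators Ino2 and Ino4. The repressor Opi1, held at the endoplasmic reticulum by phosphatidic acid and Scs2, enters the nucleus when inositol is plentiful and lowers their transcription.

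The core of that element, CATGTG, was searched on both strands in the 500 nt before each start codon (R64 reference, the same assembly as sacCer3). It matched in 9 of the 10 genes, all but OPI1, beside 13.0% of 5416 promoters of that length, and the matches lay 121 to 392 nt before the start codon. INO1, ITR1, CHO2, OPI3 and PSD1 held it at 2 or more separate places, beside 0.960% of promoters. In CHO2 and INO2 a match on one strand overlapped a match on the other, since the core read on the other strand is CACATG. The windows can reach into neighbouring genes, and a match is a description of letters, not a shown binding site. In the 300 nt before the start codon, 9 of the 10 genes had a match, beside 7.09% of all promoters. The 300 bases before the start codon are shown for INO1, ITR1, OPI3, PSD1 and CHO1, the 5 genes past the size rule given below in at least 1 comparison, read 5′ to 3′ toward the start codon, with matches on either strand in capitals. All 5 lie on the minus strand, at chrX:135934-136233, chrIV:1445468-1445767, chrX:572936-573235, chrXIV:317672-317971 and chrV:208475-208774 in that order.
INO1: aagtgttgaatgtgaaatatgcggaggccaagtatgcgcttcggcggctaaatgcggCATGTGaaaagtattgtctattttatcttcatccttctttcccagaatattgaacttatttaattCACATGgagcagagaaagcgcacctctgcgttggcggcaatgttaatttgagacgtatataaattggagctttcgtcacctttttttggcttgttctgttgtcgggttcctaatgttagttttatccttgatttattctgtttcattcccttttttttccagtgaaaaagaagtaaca
ITR1: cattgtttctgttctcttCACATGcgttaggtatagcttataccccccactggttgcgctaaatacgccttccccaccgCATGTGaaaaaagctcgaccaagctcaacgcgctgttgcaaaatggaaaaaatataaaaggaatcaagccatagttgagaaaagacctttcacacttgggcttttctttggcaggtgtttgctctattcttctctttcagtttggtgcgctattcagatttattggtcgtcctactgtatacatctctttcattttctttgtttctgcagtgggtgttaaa
OPI3: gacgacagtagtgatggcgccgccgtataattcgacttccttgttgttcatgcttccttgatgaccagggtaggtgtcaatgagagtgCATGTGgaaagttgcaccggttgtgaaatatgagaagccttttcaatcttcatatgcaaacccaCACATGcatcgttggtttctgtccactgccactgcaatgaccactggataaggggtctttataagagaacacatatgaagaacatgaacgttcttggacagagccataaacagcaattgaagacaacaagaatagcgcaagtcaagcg
PSD1: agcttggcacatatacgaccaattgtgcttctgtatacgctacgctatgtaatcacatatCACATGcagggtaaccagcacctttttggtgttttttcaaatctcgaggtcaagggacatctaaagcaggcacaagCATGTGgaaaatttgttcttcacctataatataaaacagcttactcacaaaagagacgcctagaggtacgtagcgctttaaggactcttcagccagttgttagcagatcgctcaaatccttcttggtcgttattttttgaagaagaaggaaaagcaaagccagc
CHO1: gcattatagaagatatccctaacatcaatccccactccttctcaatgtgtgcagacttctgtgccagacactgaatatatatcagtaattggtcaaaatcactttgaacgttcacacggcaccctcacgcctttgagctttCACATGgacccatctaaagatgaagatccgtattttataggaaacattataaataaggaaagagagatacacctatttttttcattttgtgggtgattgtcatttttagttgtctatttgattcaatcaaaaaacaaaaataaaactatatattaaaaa
In INO1 the matches began 243 and 178 nt before the start codon, and in OPI3 212 and 148 nt before it. In this window ITR1 had a match at 282 and at 221 nt, PSD1 at 240 and 164 nt, and CHO1 a single match at 159 nt.

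**Figure D1:**
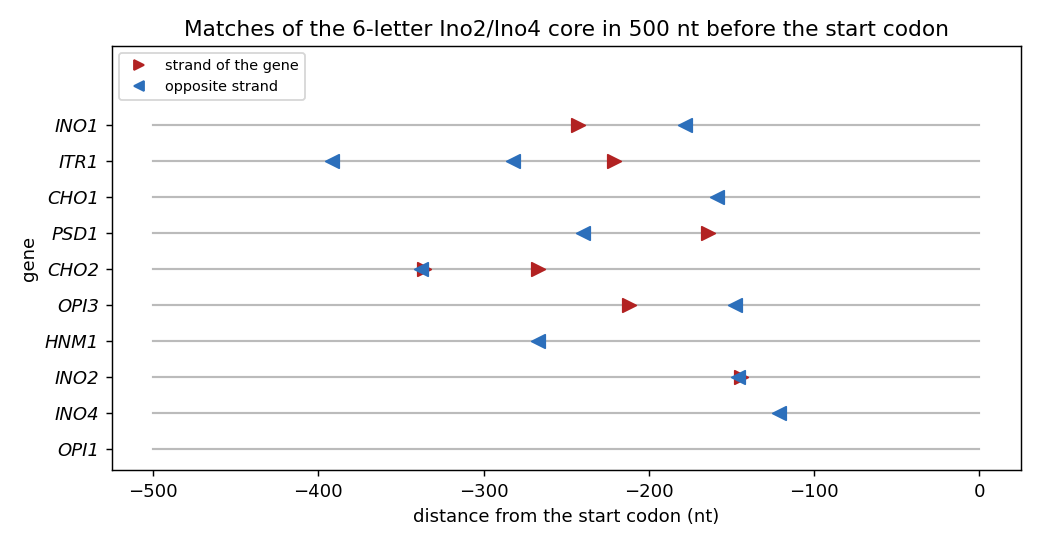
Each line is the 500 nt before the start codon of 1 gene, with the distance from the start codon in nt on the x axis and triangles for matches of the 6-letter core on the strand of the gene or the opposite strand. A match was found in 9 genes, 5 of them at 2 or more separate places, and OPI1 had none.

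All 10 genes had their highest scaled level in the wild-type library labelled TIF4631 and their lowest in the deletion library with raised TIF4631. Of the 4997 ORFs tested, 15.3% had that pattern, which was noticed after the values were seen. The directions of the ratios below that involve either of these libraries follow from this pattern and are not separate results. For 9 of the 10, all but INO4, the full order was wild-type library labelled TIF4631, wild-type control, deletion control, deletion with raised TIF4631, an order held by 8.89% of ORFs. For OPI1 the steps from wild-type control to deletion control, and from there to deletion with raised TIF4631, lay within counting error. Without the wild-type library labelled TIF4631, the order of the other 3 held for the same 9 genes, beside 21.6% of ORFs. Since the library left out was the highest for all 10, this count could not differ and is no separate check. Together the 10 genes took 0.901% of all counts in the wild-type control, 1.95% in the wild-type library labelled TIF4631, 0.688% in the deletion control library and 0.368% in the deletion library with raised TIF4631. INO1 alone made up 47.3%, 67.9%, 38.3% and 29.0% of these counts in the same order, and the other 9 genes held 0.475%, 0.628%, 0.425% and 0.261% of all counts.

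**Figure D2:**
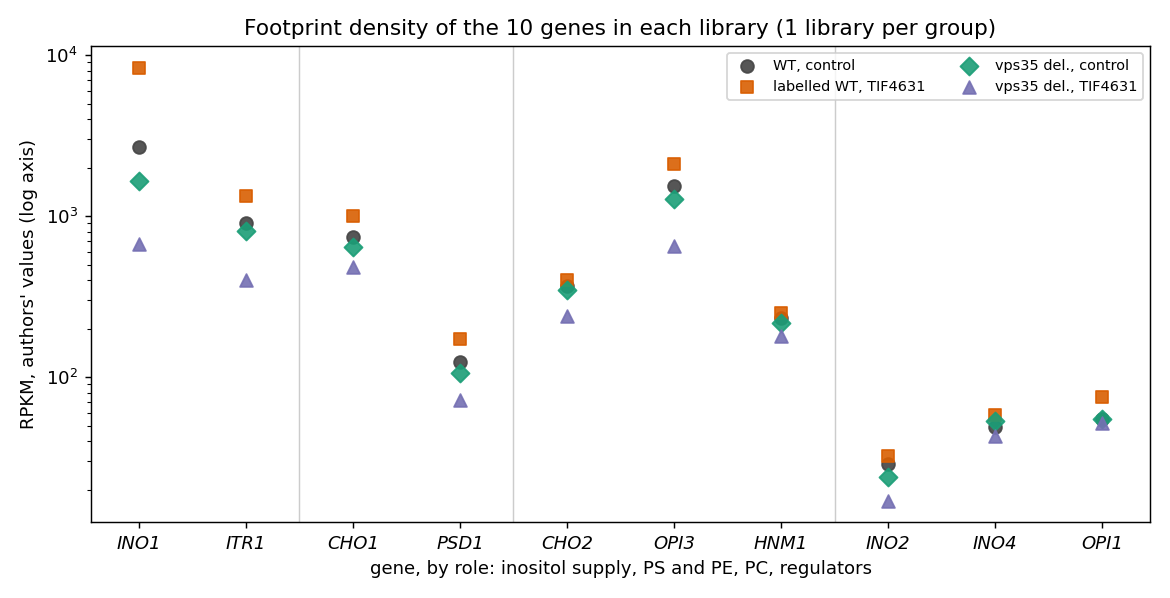
The y axis, on a log scale, is the authors' RPKM of each gene in each of the 4 libraries, and genes are grouped on the x axis by role. The squares of the wild-type library labelled TIF4631 are highest and the triangles of the deletion library with raised TIF4631 lowest for every gene, and INO1 spreads from 673 to 8359 RPKM.

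INO1 (YJL153C) encodes inositol-3-phosphate synthase, the first enzyme of inositol synthesis. It had 75266 counts in the wild-type control, 239687 in the wild-type library labelled TIF4631, 29595 in the deletion control library and 17448 in the deletion library with raised TIF4631, which are 4272, 13667, 2602 and 1046 CPM. Per length, by the authors' RPKM, it ranked 84th, 9th, 129th and 302nd of all listed ORFs in that order. Its share of counts was 1.33% (exact binomial 95% interval 1.32 to 1.33) in the library where it was highest and 0.107% (0.105 to 0.108) where it was lowest. The highest and lowest levels differed 13.1-fold, and no 2 libraries overlapped within counting error. ITR1 (YDR497C), the main plasma membrane inositol transporter, followed the same order over a smaller span, with 1581, 2397, 1395 and 678 CPM, 3.54-fold between the extremes. INO1 exceeded ITR1 per length 2.96-fold, 6.25-fold, 2.04-fold and 1.69-fold in the 4 libraries.

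CHO1 (YER026C), phosphatidylserine synthase, measured 608 CPM in wild-type control cells, 838 CPM in the wild-type library labelled TIF4631, 520 CPM in the deletion control library and 386 CPM in the deletion library with raised TIF4631. PSD1 (YNL169C), the mitochondrial phosphatidylserine decarboxylase, had 185, 265, 156 and 105 CPM in the same order. The 2 enzymes of consecutive steps kept a ratio of 6.01, 5.78, 6.09 and 6.68 per length, by RPKM.

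CHO2 (YGR157W), which adds the first methyl group to phosphatidylethanolamine, had 954, 1070, 889 and 614 CPM in the order given above. OPI3 (YJR073C), which adds the next methyl groups, had 930, 1318, 769 and 385 CPM. The 2 methyltransferases thus did not move by the same amount, and OPI3 exceeded CHO2 per length 4.17-fold, 5.28-fold, 3.70-fold and 2.69-fold. HNM1 (YGL077C), the choline transporter that feeds the other route to phosphatidylcholine, had 394, 432, 359 and 297 CPM, the narrowest span of the enzyme and transporter genes at 1.46-fold.

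The regulators had the lowest footprint density of the 10 by RPKM. INO2 (YDR123C), the activator subunit that carries the activation domain, had 459, 524, 244 and 252 counts, which are 26.1, 29.9, 21.5 and 15.1 CPM. INO4 (YOL108C), its basic helix-loop-helix partner, had 21.6, 26.5, 23.4 and 18.7 CPM, a span of 1.41-fold. For INO4 the 2 control-plasmid libraries could not be told apart by counting. OPI1 (YHL020C), the repressor, had 65.7, 92.3, 64.9 and 61.0 CPM, and here the highest library stood apart while the other 3 lay close together. By RPKM, OPI1 exceeded INO2 1.89-fold, 2.32-fold, 2.27-fold and 3.03-fold in the 4 libraries.

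With the control plasmid in both strains, the comparison of vps35 deletion with wild type sets the strains side by side without TIF4631 induction. With 1 library on each side, strain and library cannot be told apart. A size rule was used for calls: the log2 ratio had to reach 1 or -1, and its 95% counting interval had to leave out 0. By that rule 0 of the 10 genes were called, beside 0.540% of all ORFs lower and 0.260% higher. The intervals of 8 of the 10 lay below 0, beside 17.3% of all ORFs, and 0 lay above it. An interval leaves out 0 more readily at high counts. The median listed ORF had 860 counts in the wild-type control, and all of the 10 but INO2 and INO4 had more. Shares of intervals here and below thus compare unlike depths. The median log2 ratio of the 10 was -0.20, against 0.00 over all ORFs. INO1 was 1.64-fold lower in the deletion library, with a log2 ratio of -0.72 (-0.74 to -0.70), and the next lowest were INO2 at -0.28 (-0.51 to -0.05) and OPI3 at -0.27 (-0.31 to -0.24). INO4, at 0.11 (-0.12 to 0.34), and OPI1, at -0.02 (-0.15 to 0.12), had intervals that spanned 0.

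INO1 lies beside the deleted gene. On chromosome X, VPS35 (131101 to 133935) and INO1 (134332 to 135933, sacCer3) are both on the minus strand, 396 nt apart, with the 3′ end of INO1 toward VPS35 and its promoter on the far side. The nearest listed ORFs on either side of the pair, FBP26 beyond VPS35 and SNA3 beyond the INO1 promoter, had log2 ratios of 0.28 (0.13 to 0.42) and 0.11 (0.04 to 0.18) in this contrast. The other 9 genes are not next to VPS35. Their median log2 ratio was -0.18, and 7 of the 9 had intervals below 0, beside 17.3% of all ORFs. Whether the deletion acts on INO1 locally was not tested.

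The wild-type library labelled TIF4631 was compared with the wild-type control library. All 10 genes were higher beyond counting error, beside 24.0% of all ORFs, and 1 of the 10, INO1, was higher by the size rule, beside 0.460% of ORFs. INO1 was 3.20-fold higher, its log2 ratio being 1.68 (1.67 to 1.69). Below it came ITR1 at 0.60 (0.58 to 0.62), PSD1 at 0.52, OPI3 at 0.50, OPI1 at 0.49 (0.38 to 0.60) and CHO1 at 0.46. INO4 at 0.29, INO2 at 0.20 (0.01 to 0.38), CHO2 at 0.17 and HNM1 at 0.13 (0.09 to 0.18) completed the list. The median of the 10 was 0.48, against 0.00 over all ORFs, and 0.46 without INO1. TIF4631 itself stood at -0.17 in this pair, so no rise of TIF4631 footprints accompanied these values.

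Within vps35 deletion cells, the library with raised TIF4631 was compared with the deletion control library. Here 9 of the 10 genes were lower beyond counting error, beside 31.3% of all ORFs, and 2 of the 10 were lower by the size rule, beside 0.560% of ORFs. These were INO1, 2.49-fold lower with a log2 ratio of -1.31 (-1.34 to -1.29), and ITR1 at -1.04 (-1.08 to -1.01). OPI3, at -0.996 (-1.04 to -0.95), was just short of the rule, and passed it at -1.01 when the 50 most abundant ORFs were left out of the scaling. PSD1 at -0.56 (-0.66 to -0.47), CHO2 at -0.54, INO2 at -0.51, CHO1 at -0.43, INO4 at -0.32 and HNM1 at -0.27 followed. OPI1 was the exception, at -0.09 (-0.23 to 0.05). The median of the 10 was -0.52, against 0.01 over all ORFs, and the URA3 marker stood at -2.63 (-2.71 to -2.56) in the same pair.

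**Figure D3:**
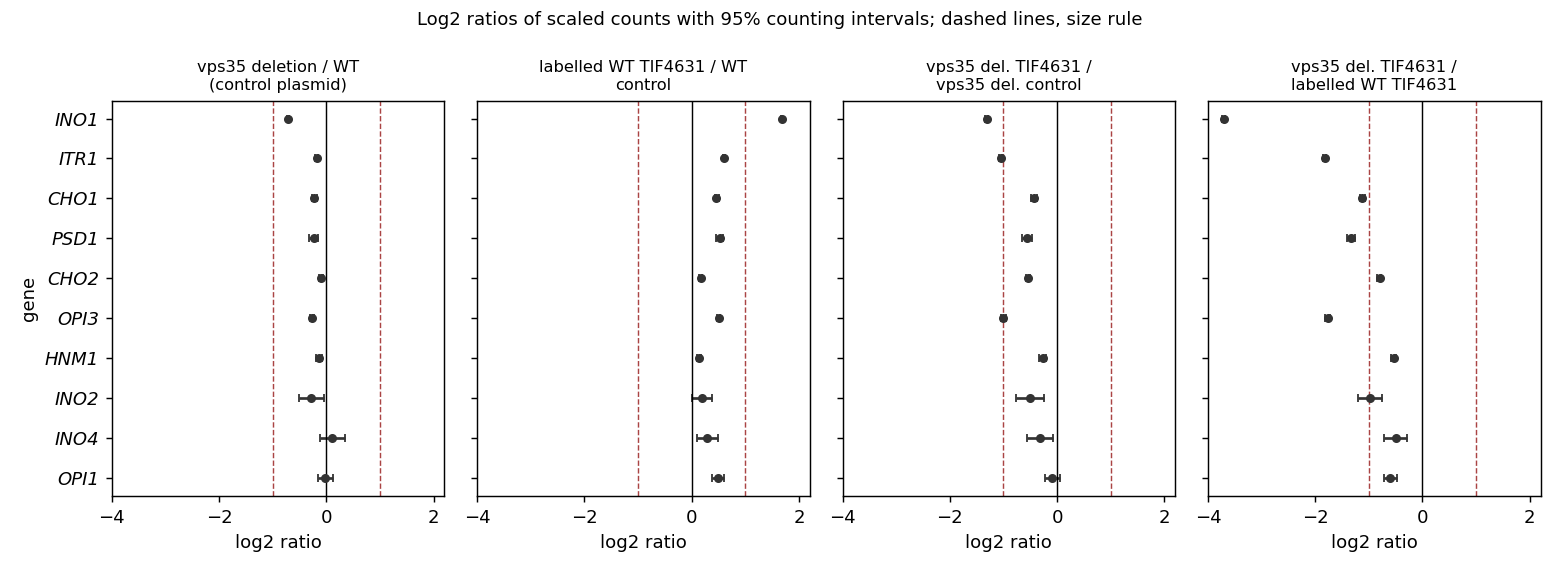
Points are log2 ratios of scaled counts for each gene in 4 pairs of libraries, bars are 95% counting intervals, and dashed lines mark the size rule at 1 and -1. In the pair under the TIF4631 label, at the right, INO1 reaches -3.71 and all 10 genes lie left of 0.

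Under the TIF4631 label, the vps35 deletion library was set against the wild-type library labelled TIF4631. Strain and raised TIF4631 cannot be told apart in this pair, since only the deletion library held raised TIF4631. All 10 genes were lower beyond counting error, beside 35.3% of all ORFs, and 5 of the 10 were lower by the size rule, beside 2.40% of ORFs. INO1 was 13.1-fold lower, its log2 ratio being -3.71 (-3.73 to -3.69), ITR1 stood at -1.82 (-1.85 to -1.79), OPI3 at -1.77 (-1.81 to -1.73), PSD1 at -1.33 (-1.41 to -1.25) and CHO1 at -1.12 (-1.16 to -1.07). Just outside the rule was INO2 at -0.98 (-1.21 to -0.76), and the nearest to 0 was INO4 at -0.50 (-0.71 to -0.29). The 10 had a median of -1.05, against 0.00 over all ORFs.

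The interaction, the log2 ratio for the TIF4631 plasmid label in vps35 deletion cells less the same in wild-type cells, was below 0 for all 10 genes beyond counting error, beside 31.5% of all ORFs. It was past the size rule for 4 of the 10, beside 1.78% of ORFs, with INO1 at -2.99 (-3.02 to -2.96), ITR1 at -1.64 (-1.68 to -1.60), OPI3 at -1.50 (-1.55 to -1.45) and PSD1 at -1.08 (-1.20 to -0.97). HNM1 had the smallest, at -0.41 (-0.48 to -0.33). Since TIF4631 was not raised in the wild-type library labelled TIF4631, the interaction does not set raised TIF4631 against raised TIF4631, and the part of the factor in it was not tested. For 9 of the 10 genes the ratio for the label was above 0 in wild type and below 0 in vps35 deletion, each beyond counting error, beside 8.47% of all ORFs. These signs, and that of the interaction, follow from the pattern of highest and lowest library given above.

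**Figure D4:**
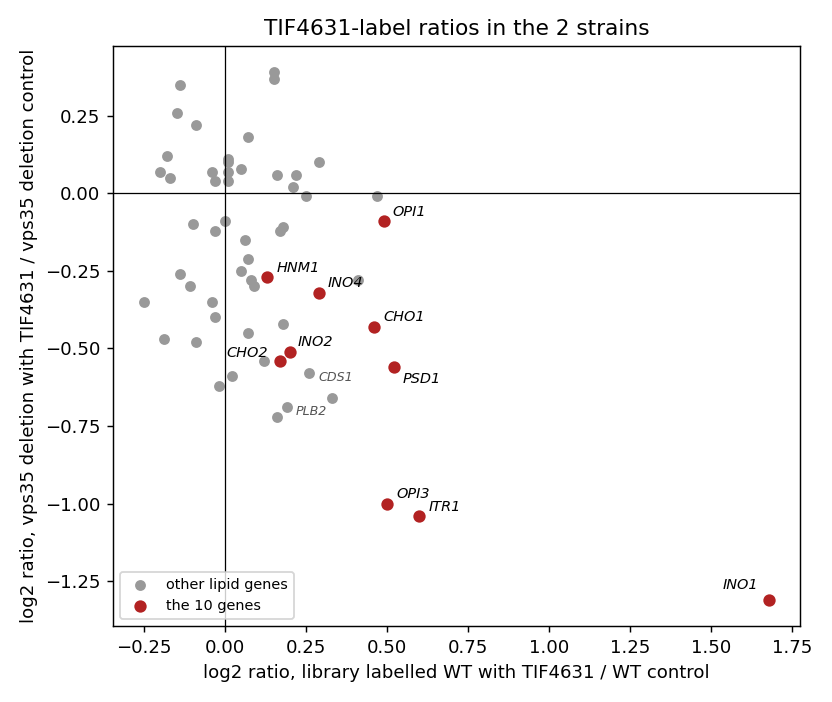
Each point is 1 gene, with its log2 ratio for the TIF4631 label in wild type on the x axis and in vps35 deletion on the y axis, for the 10 genes (red) and 49 other lipid genes (grey). All 10 lie right of 0 and below 0, with INO1 at 1.68 and -1.31 farthest from the others.

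Across samples, 1 test was possible: edgeR's quasi-likelihood test in a model that adds strain and plasmid label. It was fitted to all ORFs with 1 residual degree of freedom. The model counts the interaction of strain and label as residual spread, so its SEs and p-values do not measure spread between replicates. Its strain effect averages the pair under the control plasmid, where INO1 stood at -0.72, and the pair under the TIF4631 label, where INO1 stood at -3.71 and strain and raised TIF4631 cannot be told apart. Its label effect joins a library at 403 CPM of TIF4631 with one at 6217 CPM. For the strain effect, 0 of the 10 genes passed a Benjamini-Hochberg adjusted p of 0.05, beside 0.620% of all ORFs. The estimates were negative for all 10, and 6 of the 10 had an unadjusted p under 0.05 by edgeR, beside 6.96% of ORFs. These signs follow from the pattern of highest and lowest library given above, and the p-values are not separate from it. Without replicates, a gene that did not pass is not shown to be unchanged. The log2 change of INO1 was -2.21 (SE 0.650, adjusted p = 0.305 by edgeR), OPI3 -1.02 (SE 0.323, edgeR adjusted p = 0.376) and PSD1 -0.79 (SE 0.246, edgeR adjusted p = 0.369). DESeq2 and limma also called 0 of the 10. With no filter on low counts, edgeR called INO1 alone, at an adjusted p = 0.0407, and over all alternatives its adjusted p ranged from 0.0407 to 1. For the plasmid label, 0 of the 10 passed by edgeR, DESeq2 or limma. By edgeR 0 of the 10 had an unadjusted p under 0.05, beside 3.36% of ORFs, and 0 of all ORFs passed. DESeq2 gave no adjusted p for 2325 ORFs for this label, and such ORFs were counted as not passing.

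The other lipid genes, a name used here for genes of lipid synthesis and turnover, phosphoinositide kinases and regulators, were taken from 9 lists. These held 50 genes, of which 49 passed the minimum count. GIT1, which imports glycerophosphoinositol, did not, with 20, 9, 10 and 8 counts. By the size rule 0 of the 49 were called in the contrast of the control plasmid, for the TIF4631 label in either strain or in the interaction, and 2 were lower under the TIF4631 label, CDS1 and PLB2, beside 2.40% of all ORFs. CDS1, the CDP-diacylglycerol synthase of the endoplasmic reticulum, had 398, 476, 327 and 218 CPM in the order of libraries given above, and a log2 ratio of -1.12 (-1.18 to -1.07) in that pair. PLB2, a phospholipase B, had 167, 190, 113 and 69.8 CPM and a log2 ratio of -1.44 (-1.54 to -1.35). In the additive model 0 of the 49 passed an edgeR adjusted p of 0.05 for strain, with 6 at an unadjusted p under 0.05, beside 6.96% of all ORFs, and PLB2 stood lowest in adjusted p, at 0.135 by edgeR. The pattern of highest in the wild-type library labelled TIF4631 and lowest in the deletion library with raised TIF4631 held for 11 of the 49, beside 15.3% of all ORFs, among them CDS1, PLB2, the choline kinase CKI1 and the acetyl-CoA carboxylase ACC1.

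In the vps35 deletion library with raised TIF4631 against the deletion control, the fatty acid genes ACC1, FAS1, FAS2 and OLE1 had log2 ratios of -0.42, -0.45, -0.54 and -0.59, all 4 beyond counting error. Over all ORFs, 31.3% were lower and 30.1% higher beyond counting error in this pair. Of 11 phosphatidate genes, 8 were lower and 1 higher beyond counting error, with a median of -0.30 and the phosphatase regulator SPO7 lowest at -0.72. The Kennedy pathway, which makes phosphatidylcholine and phosphatidylethanolamine from free choline and ethanolamine, had a median of -0.20, with the cholinephosphotransferase CPT1 at -0.40. Phosphoinositide kinases lay on the other side, with a median of 0.20 and 4 of 6 higher beyond counting error, led by the phosphatidylinositol 4-kinase PIK1 at 0.39. Among inositol and phosphatidylinositol genes, the second inositol transporter ITR2 was lowest at -0.47, and the phosphatidylinositol synthase PIS1 stood at -0.10. Cardiolipin genes were led by GEP4 at -0.28, the other regulators by SIN3 at -0.15 and the turnover genes by PLB2 at -0.69, and the CDP-diacylglycerol list by CDS1 at -0.58.

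In the other contrasts the largest ratio of each list was smaller in size than that of INO1. Under the control plasmid, in the vps35 deletion library against wild type, PLB2 stood at -0.57 and HAC1, the transcription factor of the unfolded protein response, at -0.51. SPO7 stood at 0.28, CDS1 at -0.28 and ITR2 at -0.22, with CRD1 at -0.14, LSB6 at 0.14, FAS2 at 0.13 and both EKI1 and EPT1 at -0.12. Of these, SPO7 (-0.07 to 0.62), CRD1, LSB6, EKI1 and EPT1 were not beyond counting error. For the wild-type library labelled TIF4631 against its control, LSB6, a phosphatidylinositol 4-kinase, led at 0.47, with CKI1 at 0.41, NEM1 at 0.33, CDS1 at 0.26, INM2 at 0.25, PGS1 at 0.21 (-0.04 to 0.47), PLB2 at 0.19 and ACC1 at 0.18. In that library UME6, a regulator that recruits a repressor complex, stood at -0.18 and IRE1, the sensor of the unfolded protein response, at 0.18. Under the TIF4631 label the lists other than those of CDS1 and PLB2 were led by CKI1 at -0.76, NEM1 at -0.74, OLE1 at -0.65, HAC1 at -0.60, ITR2 at -0.50, GEP4 at -0.41 and FAB1 at 0.37. The interaction was led by NEM1 at -0.99, PLB2 at -0.88, CDS1 at -0.84, CKI1 at -0.69, FAS2 at -0.66, LSB6 at -0.48, GEP4 at -0.36, UME6 at 0.30 and ITR2 at -0.28.

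The ORFs outside the 10 whose centred log2 levels over the 4 libraries lay nearest to those of INO1 were VHT1, YEL073C, COX26, COX3 and ADH5, by Euclidean distance among the ORFs that passed the minimum count. VHT1, the biotin importer, had 223, 1172, 226 and 65.4 CPM, a distance of 0.622. YEL073C had 26.7, 67.1, 22.0 and 9.29 CPM, a distance of 0.696. The nearest of the 10 genes to INO1 were ITR1, OPI3 and PSD1, at ranks 25, 26 and 50 of all ORFs and distances of 1.44, 1.47 and 1.73. For each gene the 50 nearest ORFs were taken from the 4997 that passed the minimum count. Among these, CHO2, INO4, OPI1 and HNM1 had 0 of the other 9 genes, and ITR1, CHO1, OPI3, INO2 and PSD1 had 2 each. With 4 libraries, such likeness rests on 4 values a gene. The pattern of highest and lowest library shared by the 10 genes enters these distances, so they are not separate from it.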

How the data were processed

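Ribosome footprints were sequenced from 4 groups of 1 library each. The submitters' processing notes name Bowtie2, cutadapt 1.3, CASAVA and the build sacCer3. How reads were counted, and with which annotation, is not given in the sources used here. The deposited counts are whole reads per ORF, per the file headers. The deposited RPKM values were scaled by the authors per kilobase and per 1000000 dataset reads, per the file headers, with a length 15 nt below the annotated one for the 10 genes. RPKM was used to compare genes, and counts for everything else.

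ORFs with at least 200 summed counts were kept (4997 of 5441). TMM factors of edgeR 4.0.16 over all 4 libraries were 0.997, 0.971, 1.012 and 1.021. Log2 ratios used scaled counts with 0.5 counts added and a conditional binomial (Clopper-Pearson) 95% interval, or a normal approximation on log counts for the interaction. The additive model used the quasi-likelihood test of edgeR and p-values adjusted by Benjamini-Hochberg, and DESeq2 1.42.0 and limma 3.58.1 gave alternatives, in R 4.3.3. The size rule and the model were tested on simulated data, in which 200 ORFs had a log2 change of 2 in either direction. Both recovered 100% of these, with 0 false calls by the rule and 4 by the model. The simulated counts held no spread between libraries beyond counting for the rule, and no interaction of strain and label for the model. Smaller changes were not simulated. Other steps ran in Python 3.11.15 with scipy 1.17.1, pandas 2.3.3, numpy 2.4.6 and matplotlib 3.10.9. Symbols, positions and promoter sequences came from RefSeq R64, which matched 5438 ORFs.

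The 10 genes, the lists and the tests were chosen with earlier results of these data known. Named are the 10 genes in every library, the largest ratio of each lipid list in each contrast and each gene past the size rule, VPS35, TIF4631 and the ORFs beside VPS35, and the 5 ORFs nearest to INO1. URA3 and the examples of the order of libraries were added after their values were seen.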

Additional observations from a re-analysis of the deposited data

Results flagged for a closer look

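For 9 of the 10 genes the ratio for the TIF4631 label was above 0 in wild type and below 0 in vps35 deletion, each beyond counting error, beside 8.47% of all ORFs. These signs restate the pattern of highest and lowest library that all 10 genes had. The difference of the log2 ratios, vps35 deletion minus wild type, was -2.99 for INO1, -1.64 for ITR1, -1.50 for OPI3 and -1.08 for PSD1. It was -0.89 for CHO1, -0.70 for CHO2, -0.70 for INO2, -0.61 for INO4 and -0.41 for HNM1. The difference was not tested, since each side is 1 pair of libraries, and its wild-type side is the wild-type library labelled TIF4631, in which TIF4631 was not raised. OPI1 had the same direction in wild type, at 0.49, and an interval that spanned 0 in vps35 deletion.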

How the results depend on the processing

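The counts of the 10 genes past the size rule were the same under every alternative run, except that 3 and not 2 were lower for TIF4631 in vps35 deletion when the 50 most abundant ORFs were left out of the scaling. With total count scaling, DESeq2 size factors and the scaling without those ORFs, all 10 remained highest in the wild-type library labelled TIF4631 and lowest in the deletion library with raised TIF4631, and the full order held for 8 to 9. Total count scaling left the median log2 ratio of all ORFs within 0.071 of 0 in every contrast.

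With no filter, all ORFs past the size rule became 24 higher and 46 lower for vps35 deletion under the control plasmid, and 38 and 20 for the wild-type library labelled TIF4631. With a minimum of 1000 counts they became 8 and 13 in the first, 3 lower in the second, 33 higher for TIF4631 in vps35 deletion, and 52 higher and 59 lower in the interaction. In the additive model the strain calls over all ORFs were 42 that rose and 41 that fell with total counts, 19 that rose with DESeq2 size factors, 42 and 52 with no filter and 30 and 36 by DESeq2. One of the 10 genes, INO1, passed with no filter, and 1 of the other lipid genes with total counts, no filter and DESeq2. For the plasmid label 1 rose and 1 fell with total counts, DESeq2 size factors or a minimum of 1000 counts, 3 and 1 with no filter, and 5 and 1 by DESeq2, with 2325 adjusted p-values not given. The share of promoters with the core was 7.09% in 300 nt, a shorter window. The cause of the other shifts was not tested. The order of libraries, its count without the wild-type library labelled TIF4631, the alternatives for the other lipid genes and the shorter window were chosen after seeing the data. No paired analysis was possible because each group holds 1 library.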

Other observations

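Among the 50 other lipid genes, 10 had the core CATGTG in the 500 nt before the start codon and 2 had it at 2 or more separate places, beside 13.0% and 0.960% of all promoters. They were CDS1, PSD2, CKI1, EKI1, CPT1, ALE1, PGS1, ACC1, FAS2 and PLB2. Of these, CDS1 and PLB2, with 1 match each, were the 2 past the size rule under the TIF4631 label, and the others stayed short of it. The 2 genes with the core at 2 separate places, PSD2 and PGS1, stood at -0.08 (-0.22 to 0.06) and -0.31 (-0.58 to -0.05) in that pair. Over the ORFs outside the 10 genes, the pattern of highest in the wild-type library labelled TIF4631 and lowest in the deletion library with raised TIF4631 was found for 14.5% of 4343 with no match, 18.6% of 634 with at least 1 match and 20.3% of 59 with 2 or more. Overlapping matches on the 2 strands were counted as 2 here, and the 59 are among the 634. These shares were not tested, and genes are not independent replicates.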
